A study of Mus musculus with 4 samples.

Results

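*Ly86*-positive cells of the granulocyte-monocyte progenitor (GMP) sort were described in 1 control and 1 *Tet2* KO library of mouse bone marrow. They were selected by their own measured counts, as the cells of the GMP sort with at least 3 unique molecular identifiers (UMIs, each marking 1 captured RNA molecule) of *Ly86* and at most 1 UMI of *Cebpe*. The rule selected 421 of 1258 cells of the control library and 676 of 2719 cells of the *Tet2* KO library, so 1097 of the 3977 cells of the GMP sort and of the 8969 cells of the whole series. Single-cell RNA was counted in 4 libraries, 1 for each genotype and sort. Control cells came from *Tet2* fl/fl mice without Cre, and *Tet2* KO cells from their littermates with *Tet2* fl/fl and Mx1-Cre. All mice, controls included, carried the floxed *Tet2* alleles and received pI:pC, an interferon inducer that switches on Mx1-Cre, in 4 injections of 12.5 ug per gram each. Mx1-Cre is not restricted to 1 cell type. The GMP sort took Lin- cKit+ Sca1- CD34+ CD16/32+ cells, while a second sort, used here for comparison and called Lin-/CD11b+, collected lineage-negative progenitors plus CD11b+ cells. With a single library per genotype and sort, nothing could be tested between genotypes, and genotype cannot be told apart from mouse or library preparation. All intervals are 95% intervals for counting error only.

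GMP are bone marrow progenitors that give rise to neutrophils and monocytes. Within the sort, cells lean toward one fate before they divide into recognisable types: *Irf8* and *Klf4* encode transcription factors that drive the monocytic and dendritic fates, and *Cebpe* encodes a factor that granulocyte precursors need for their later granules. *Ly86* encodes MD-1, a secreted partner of the Toll-like receptor homologue RP105 (*Cd180*), and is used as an early marker of the monocytic branch.

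The *Ly86* gene lies beside *F13a1*, which encodes the A subunit of coagulation factor XIII and is another monocytic marker. In the RefSeq annotation of GRCm38.p6 both are on chromosome 13, with start sites 295 kb apart and 0 protein-coding genes between them. Promoters of 3 of the label markers are shown: *Ly86*, and *F13a1* and *Ly6c2*, the markers that held a match to the letters searched. Each is the 150 bases before a RefSeq start site, read 5′ to 3′ on the strand of the gene, with a match to the PU.1 letters GAGGAAG in capitals.
*Ly86*, chr13:37345195-37345344, plus strand: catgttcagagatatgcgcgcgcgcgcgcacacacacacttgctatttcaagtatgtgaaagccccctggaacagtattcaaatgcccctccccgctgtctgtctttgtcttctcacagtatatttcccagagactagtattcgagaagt
*F13a1*, chr13:37050245-37050394, minus strand: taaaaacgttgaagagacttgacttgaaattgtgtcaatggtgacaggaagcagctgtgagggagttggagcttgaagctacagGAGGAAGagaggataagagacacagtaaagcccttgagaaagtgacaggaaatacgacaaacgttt
*Ly6c2*, chr15:75111972-75112121, minus strand: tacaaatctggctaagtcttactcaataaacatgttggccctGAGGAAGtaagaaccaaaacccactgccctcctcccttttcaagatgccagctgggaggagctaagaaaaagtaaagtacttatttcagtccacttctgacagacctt

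The match began 66 bases before the start shown for *F13a1* and 108 bases before that shown for *Ly6c2*. Both genes have another RefSeq start. The 250 bases before that of *F13a1* held 0 matches to the PU.1 letters, and those before that of *Ly6c2* held 2, beginning 142 and 8 bases before it. The 250 bases before the starts of *Ly86*, *Irf8*, *Klf4* and *Ms4a6c* held none of the letters searched on either strand, which were GAGGAAG for PU.1, TTGCNNAA for C/EBP and TGANTCA for AP-1. Over 32851 promoters of the same length, 10.6% held the PU.1 letters, 9.56% the C/EBP letters and 6.75% the AP-1 letters, so a match is common and describes the letters alone.

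The selected cells held 8276745 UMIs in the control library and 11910797 in the *Tet2* KO library, with a median of 19610 and 17201.5 UMIs per cell. They were 33.5% (30.9 to 36.1) of the control library and 24.9% (23.2 to 26.5) of the *Tet2* KO library, in which cells were shallower. With every cell thinned to 5000 UMIs and *Ly86* at 1 or more and *Cebpe* at 0, the shares were 33.1% and 27.8%. These were partly different cells: 77.9% in control and 68.2% in *Tet2* KO were also among the selected cells. The libraries shared 4 to 8 cell barcodes per pair, and 1 barcode was shared between selected cells of the control and *Tet2* KO GMP libraries. In the study's table of cell numbers the counts of the *Tet2* KO GMP library and of the control Lin-/CD11b+ library stand the other way round from the deposited cell table, whose assignment was used. Under that assignment the *Tet2* KO GMP library held 0 UMIs of the lymphoid genes *Ly6d*, *Cd3e* and *Ms4a1*, while the control Lin-/CD11b+ library held 4382 UMIs of *Ly6d*. *Xist* was found in both sets of selected cells, at 923 and 883 counts per 1000000 (CPM), with 1 and 0 UMIs of the Y-linked *Kdm5d*. *Tet2* itself was at 14.1 CPM in control and 17.5 CPM in *Tet2* KO cells, a log2 ratio of 0.30 (-0.029 to 0.64), and these 3′ tag counts do not check the deletion.

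*Ly86* counts per selected cell ran from 3 to 17, with a median of 6, in control and from 3 to 15, with a median of 5, in *Tet2* KO. Cells at exactly 3 UMIs were 15.7% of the control and 28.4% of the *Tet2* KO cells, and cells with 10 or more were 10.5% and 5.62%. *Cebpe* was at 0 in 337 of the control and 543 of the *Tet2* KO cells. The rule divided a continuous distribution. Cells just outside it, with 2 UMIs of *Ly86*, were 79 in control and 228 in *Tet2* KO and held 270 and 268 CPM of *F13a1* and 445 and 323 CPM of *Irf8*. Cells just inside, with 3 UMIs, held 300 and 310 CPM of *F13a1* and 502 and 425 CPM of *Irf8*.

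**Figure D1:**
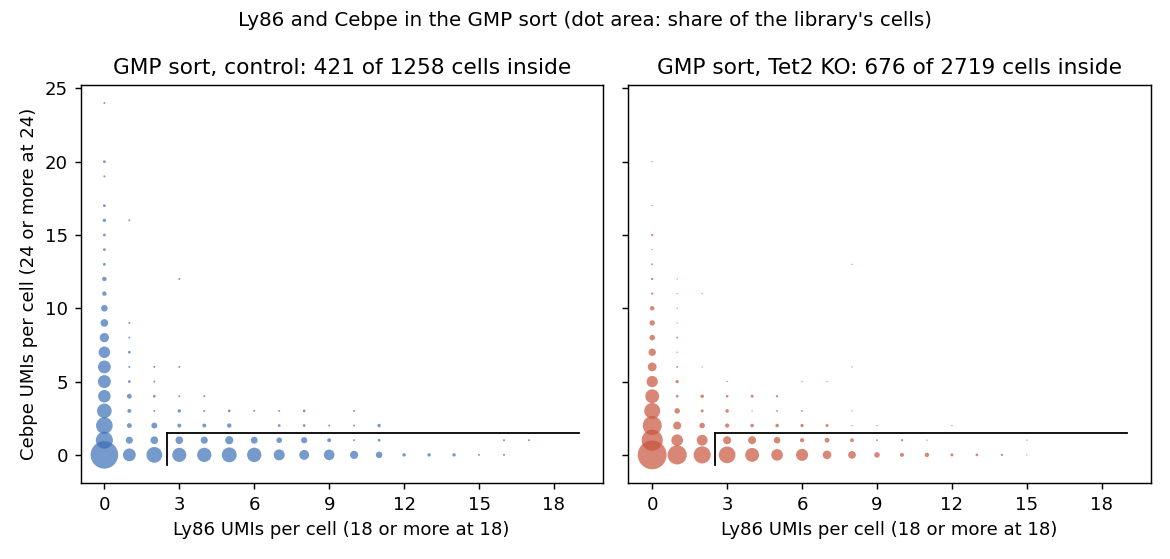
*Ly86* (x axis) against *Cebpe* (y axis) in UMIs per cell for each GMP library, with dot area showing the share of the library's cells and lines showing the rule. The box holds 421 of 1258 control and 676 of 2719 *Tet2* KO cells, and most cells of either library lie along an axis.

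The label was checked on the 5 other markers given with it, *F13a1*, *Irf8*, *Ly6c2*, *Klf4* and *Ms4a6c*. At least 3 of the 5 had a UMI in 99.5% (98.3 to 99.9) of control and 99.3% (98.3 to 99.8) of *Tet2* KO cells. Comparison cells were taken from the opposite corner of the same libraries, with at least 3 UMIs of *Cebpe* and at most 1 of *Ly86*: 305 control and 486 *Tet2* KO cells, called *Cebpe*-positive here. Of these 25.2% and 28.8% had at least 3 of the 5 markers. After thinning to 5000 UMIs the shares were 95% and 93.3% of the selected cells and 4.26% and 6.79% of the *Cebpe*-positive cells. By this count the label held in nearly every selected cell. The share was not taken in cells just outside the rule, so it does not set the selected cells apart from those. Because the rule itself set *Ly86* against *Cebpe*, all differences between selected and *Cebpe*-positive cells are descriptions and none was tested.

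Among the markers *Ly6c2*, which encodes a surface antigen of inflammatory monocytes, had the highest level. It was at 2948.3 CPM in control and 3356.3 CPM in *Tet2* KO cells, against 943 and 1606.1 CPM in *Cebpe*-positive cells. *Irf8* was at 577 (560 to 593) and 449 (437 to 461) CPM, against 13.7 and 33.4 CPM. It was therefore lower in *Tet2* KO among the selected cells and higher in *Tet2* KO among the *Cebpe*-positive ones. The *Cebpe*-positive cells, also chosen on raw UMIs, had a median of 20130 UMIs in control and 15337 in *Tet2* KO. The part of this depth in their marker levels was not tested. *Ms4a6c*, a membrane protein of the MS4A family, was at 538 and 573 CPM, against 37.9 and 73.4 CPM. *F13a1* was at 404 and 358 CPM, against 21.8 and 31.1 CPM. *Klf4* was the lowest of the 5, at 45.5 (41.1 to 50.4) and 50.5 (46.5 to 54.7) CPM, with a UMI in 48.2% and 48.1% of selected cells. The sum of the 5 markers stood above that of *Cebpe*-positive cells by 2.15 (2.11 to 2.19) on the log2 scale in control and by 1.45 (1.43 to 1.48) in *Tet2* KO. Within *Cebpe*-positive cells that sum was 1017.7 CPM in control and 1746.2 CPM in *Tet2* KO, and within the selected cells 4512.3 and 4786.7 CPM.

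Of 5659 genes with enough UMIs, 196 were at least 2-fold higher in the selected than in the *Cebpe*-positive cells of both libraries (3.46%) and 124 at least 2-fold lower (2.19%). The rule used this contrast, so nothing is read from the shares. The log2 ratios correlated between the libraries across these genes (Pearson's r = 0.925), where genes are not independent replicates and each library gave both groups of its cells. The highest ratio was that of *Cd74*, the invariant chain of MHC class II, which with *H2-Eb1* is among the 12 highest and is described with the few cells that carried it. *Aif1*, a calcium-binding protein of monocytes and macrophages, was at 41.7 and 59.9 CPM against 0.161 and 0.782 CPM in *Cebpe*-positive cells. *Lgals3*, which encodes galectin-3, was at 203 and 249 CPM against 3.06 and 6.91 CPM. *Ctss*, a lysosomal protease that trims antigens, was at 88.7 and 92.9 CPM against 0.967 and 3.0 CPM. *Pld4*, an endolysosomal nuclease, was at 88.8 and 93.8 CPM against 3.55 and 3.39 CPM. *Trem2*, *Ms4a4c*, *S100a4*, *S100a6* and *Prdx4* were also among the 12 highest. Receptors of monocytes were higher too, with *Csf1r*, the receptor for M-CSF, at 52.7 and 43.2 CPM against 3.22 and 8.34 CPM. *Ccr2*, the chemokine receptor that lets monocytes leave the marrow, was at 80.7 and 107 CPM against 6.61 and 7.30 CPM.

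The summed primary granule list went the other way, and the summed secondary granule list, most of it *Lyz2*, did not. *Prg2*, which encodes eosinophil major basic protein, was at 1.57 and 2.60 CPM against 250 and 243 CPM in *Cebpe*-positive cells. *Cd63*, a granule membrane protein, was at 41.6 and 70.5 CPM against 1042.3 and 1078.4 CPM. The primary granule proteases were lower but far from absent. *Elane*, neutrophil elastase, was at 4464.7 and 4655.5 CPM against 10860.0 and 11481.8 CPM, and *Mpo*, myeloperoxidase, at 3977.4 and 3618.1 CPM against 6730.6 and 6702.5 CPM. The summed primary granule list was lower by 1.02 and 0.98 on the log2 scale. The summed secondary granule list was higher by 0.68 (0.62 to 0.74) in control and by 1.0 (0.95 to 1.04) in *Tet2* KO. *Lyz2* makes up most of that sum, so it does not describe the other secondary granule genes. Factors shared by both fates stood close to equal: *Spi1*, encoding PU.1, was at 262 and 276 CPM against 235 and 216 CPM, and *Cebpa* at 20.1 and 18.7 CPM against 20.8 and 21.4 CPM.

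Markers of mature monocytes were unevenly present. The list of 10 summed to 362 and 424 CPM, above *Cebpe*-positive cells by 4.53 and 3.90 on the log2 scale, and 70.5% and 76.3% of selected cells had a UMI of it at 5000 UMIs, against 8.85% and 9.05% of *Cebpe*-positive cells. *Lgals3*, *Ccr2* and *Csf1r*, given above, are on this list. Others were near 0: *Fn1*, which encodes fibronectin, was at 1.45 and 5.29 CPM, *Cd300e* had 0 and 1 UMI, and *Ace* had none in either library. Among partners of MD-1, *Cd180* was at 7.61 (5.85 to 9.74) and 5.29 (4.06 to 6.77) CPM, with a UMI in 14.3% and 8.58% of cells. The MD-2 gene *Ly96* was at 18 and 19.6 CPM, and *Unc93b1*, the chaperone that carries nucleic acid sensing Toll-like receptors to endosomes, was at 234 and 168 CPM. *Ly86* itself was at 311 and 294 CPM, a level that the rule set. These counts come from tags at transcript ends and need no correction for transcript length.

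**Figure D2:**
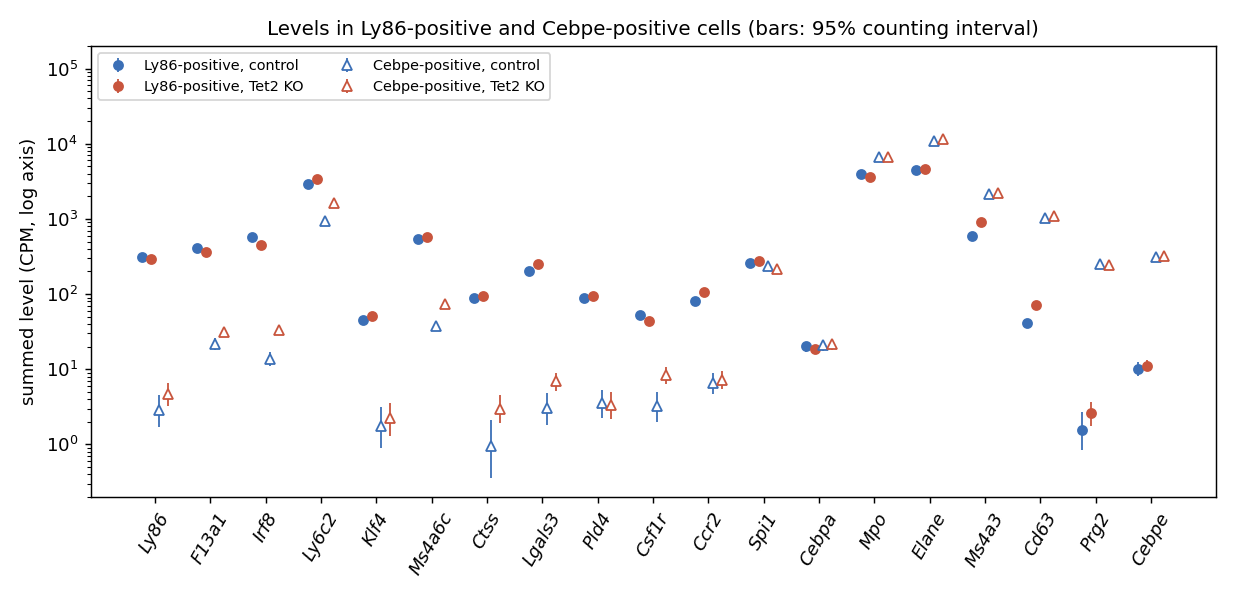
Summed level in CPM (log axis) of 19 genes in the *Ly86*-positive (filled) and *Cebpe*-positive (open) cells of the control (blue) and *Tet2* KO (red) GMP libraries, bars showing 95% counting intervals. *F13a1*, *Irf8*, *Ctss* and *Lgals3* lie more than 10-fold above the *Cebpe*-positive cells, *Spi1* and *Cebpa* lie together, and *Elane*, *Cd63* and *Prg2* lie below.

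Lists of other cell types differed in how many selected cells carried them. At 5000 UMIs, conventional dendritic markers had a UMI in 11.9% of control and 10.2% of *Tet2* KO cells, basophil and mast cell markers in 9.98% and 7.10%, and erythroid and megakaryocyte markers in 1.66% and 1.33%. Lymphoid markers, a list that holds *Ighm* and *Nkg7*, had one in 84.6% and 85.2%, and plasmacytoid dendritic markers, a list that holds *Bst2* and *Tcf4*, in 63.9% and 62.6%. In *Cebpe*-positive cells those shares were 98.0% and 99.6% for the lymphoid list and 53.1% and 58.6% for the plasmacytoid dendritic list. Neutrophil markers, *Elane* among them, had a UMI in 98.8% and 99.1% of selected cells. MHC class II genes, which antigen-presenting cells use to display peptides, varied most from cell to cell: the variance of *Cd74* UMIs was 120 times its mean in control and 126 times in *Tet2* KO, in cells thinned to 5000 UMIs, against a median ratio of 1.05 over 2407 genes. At least 3 UMIs of *Cd74* were found in 4 control (0.95%) and 5 *Tet2* KO (0.740%) cells. Those cells held 23870.4 and 18013.4 CPM of *Cd74*, 25216.0 and 16084.9 CPM of *Cst3*, and 161 and 191 CPM of *Mpo*, with a median of 9359 and 7696 UMIs per cell. *Id2* and *Batf3*, factors of dendritic cells, were at 2502.8 and 1653.0 CPM and at 323 and 127 CPM in them. *Cd74* was at 0.485 CPM in the other control cells. The genes *H2-Aa*, *H2-Ab1* and *H2-Eb1* had the next highest ratios of variance to mean. Of the genes not tied to these cells, *Elane* varied widely, with a ratio of 11.4 and 12.6 and from 0 to 80 and 0 to 98 UMIs per thinned cell.

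Within each library the selected cells were divided into a lowest, a middle and a highest group of about equal size by *Ly86* UMIs per 10000 UMIs of the cell. Both *Ly86* and the total UMIs of the cell set this order. Several other monocytic genes were higher in the highest than in the lowest group and primary granule genes lower, in both libraries. These are descriptions of 1 library each, with no test. Markers of other cell types also differed along the order. The summed conventional dendritic markers were at 22.7, 217 and 638 CPM in control and at 24.2, 162 and 416 CPM in *Tet2* KO. The basophil and mast cell markers were at 223, 63.3 and 18.2 CPM in control and at 16.3, 39.3 and 22.4 CPM in *Tet2* KO. The part of these cells in the values that follow was not tested. *F13a1* was at 355, 405 and 463 CPM in control and at 316, 359 and 406 CPM in *Tet2* KO. *Lgals3* was at 154, 176 and 290 CPM and at 177, 259 and 323 CPM. *Lyz2*, which encodes lysozyme, was at 639, 600 and 916 CPM and at 698, 1057.3 and 1290.4 CPM, so in control only the highest group stood above the others. The secondary granule list, of which *Lyz2* is the most abundant member, was at 761, 720 and 1039.9 CPM and at 906, 1317.4 and 1529.2 CPM. *Ccr2* went from 67.4 over 83.7 to 93.6 CPM and from 86.5 over 104 to 136 CPM. *Irf8* was flatter in control, at 522, 610 and 606 CPM, than the other markers, and was at 397, 461 and 497 CPM in *Tet2* KO.

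In the opposite direction, the summed primary granule list was at 19739.3, 19741.1 and 16633.7 CPM in control and at 20848.4, 20059.6 and 16755.0 CPM in *Tet2* KO. *Elane* was at 4785, 4832 and 3688 CPM in control and at 5170, 4920 and 3768 CPM in *Tet2* KO. *Nkg7*, a granule membrane protein, was at 325, 277 and 189 CPM and at 425, 352 and 242 CPM. *Ms4a3*, a gene of GMP and their early progeny, was at 674, 639 and 471 CPM and at 997, 928 and 777 CPM. *Cd34*, which the sort itself used, was at 95, 82.2 and 72.3 CPM and at 63.0, 53.5 and 51.5 CPM. Proliferation did not follow the same order, with the S phase list at 3320, 3243 and 3421 CPM in control and at 3258, 3278 and 3226 CPM in *Tet2* KO. Median depth was lower toward the highest group, from 21134 to 18758 UMIs per cell in control and from 18537 to 16176 in *Tet2* KO, and its part in these values was not tested.

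**Figure D3:**
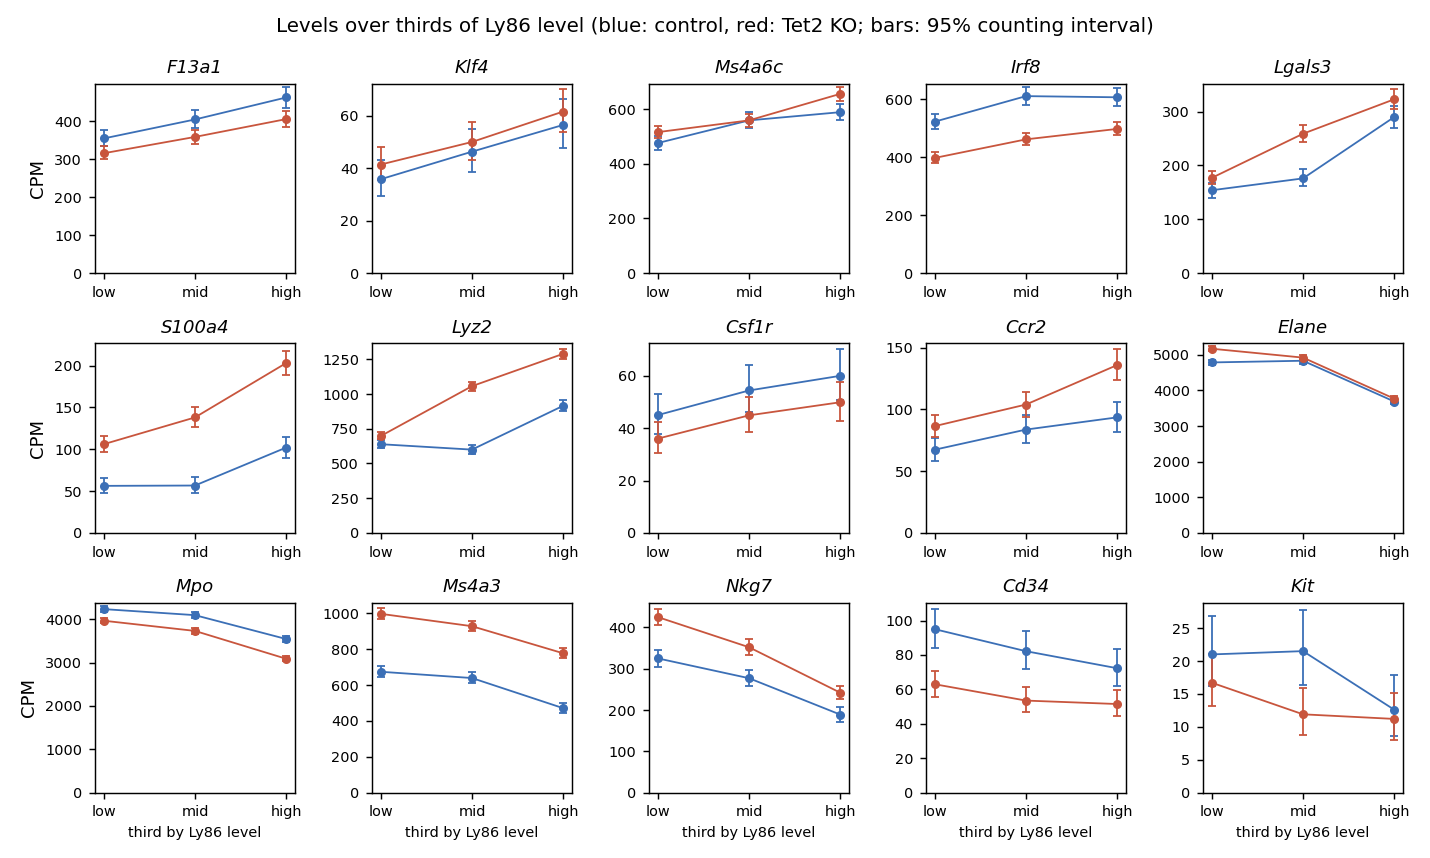
Level in CPM (y axes, from 0) of 15 genes in the lowest, middle and highest group of *Ly86*-positive cells by *Ly86* per 10000 UMIs (x axes), control in blue and *Tet2* KO in red, bars showing 95% counting intervals. *F13a1* goes from 355 to 463 CPM in control and from 316 to 406 CPM in *Tet2* KO, while *Nkg7* and *Ms4a3* are lower toward the highest group in both.

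Between genotypes the median gene was level: the median log2 ratio of *Tet2* KO over control was -0.0097 over 10373 genes with at least 20 UMIs. Ratios of CPM with 1 added, which shrink the differences of sparsely counted genes, put 86 of 6465 genes with at least 100 UMIs in 1 library at least 1.5-fold higher in *Tet2* KO (1.33%) and 83 at least 1.5-fold lower (1.28%). Of these, 49 of the 86 and 27 of the 83 were also past 1.5-fold the same way in cells selected by the same rule in the Lin-/CD11b+ sort, and 0 and 2 were past it the opposite way. The Lin-/CD11b+ sort put more genes past 1.5-fold higher than the GMP sort did. No share over all genes of that sort stands beside these overlaps, so nothing is read from them. The libraries of both sorts carry the same replicate number, and the same prefix for each genotype in the deposited cell table, so a difference between mice could appear in both sorts. The genes named next are from the 12 furthest in each direction among the shared ones.

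*Rpgrip1*, a gene best known from photoreceptor cilia, was the furthest: 0.846 (0.340 to 1.74) CPM in control and 34.6 (31.3 to 38.1) CPM in *Tet2* KO cells. It was at 0.645 and 30.8 CPM in *Cebpe*-positive cells, so its difference was not particular to the selected cells. *S100a8*, which encodes a calgranulin abundant in neutrophils and monocytes, was at 14.9 (12.4 to 17.7) and 181 (173 to 189) CPM, 12.2-fold higher. It had a UMI in 17.6% of control and 53.0% of *Tet2* KO cells, and in 5.94% and 30.0% at 5000 UMIs. *Cebpe*-positive cells, which carried far more of it, were at 344 and 1600.2 CPM. Free RNA from such cells could give UMIs in any droplet, and its part in these values was not tested. The *Tet2* KO cells with at least 3 UMIs of *S100a8* numbered 126 of 676, against 8 of 421 in control. In *Tet2* KO those 126 cells held 6637 CPM of *Elane* against 4202 in the remaining cells, and 32.4 CPM of *Cd34* against 61.8.

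*Chil3*, a chitinase-like secreted protein of monocytes and neutrophil precursors, was at 16.6 and 53.5 CPM, and *Fcnb*, a secreted lectin of the ficolin family, at 5.20 and 19.6 CPM. *Lcn2*, which encodes the iron-siderophore binding protein lipocalin 2, was at 14.4 and 43.8 CPM, against 31.3 and 30.9 CPM in *Cebpe*-positive cells. *Wfdc21* was likewise higher in the selected cells of *Tet2* KO, at 3.02 and 11.1 CPM, and near equal in *Cebpe*-positive cells, at 239 and 260 CPM. *Nupr1*, a stress-induced chromatin protein, was at 3.02 and 13.2 CPM. *Hspa1a*, an inducible heat shock protein with a near-identical neighbour between which reads can be split, was at 6.16 CPM in control and 3.24-fold higher in *Tet2* KO. *Lpl*, lipoprotein lipase, was at 4.83 and 15.3 CPM, and *Lepr*, the leptin receptor, at 13.4 and 37.6 CPM. *Xlr*, a member of a multigene family, was at 1.93 and 12.5 CPM. *Saa3*, an acute phase protein, was at 1.09 and 8.48 CPM, with 53.5% of its *Tet2* KO UMIs in 3 cells.

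*Ctse*, which encodes the protease cathepsin E, was the furthest in the opposite direction, at 30.4 (26.8 to 34.4) CPM in control and 1.01 (0.521 to 1.76) CPM in *Tet2* KO cells. Its share of cells with a UMI was 45.6% and 1.78%. *Cebpe*-positive cells showed the same, at 65.1 and 1.17 CPM, as did *Gm47283*, at 23.1 and 1.26 CPM in selected cells and 23.5 and 1.30 CPM in *Cebpe*-positive cells. *Hoxa7*, a homeobox gene of progenitors, was at 17.0 and 4.45 CPM. *Wdfy1*, an endosomal adaptor, was at 19.2 and 5.79 CPM, and *Oser1* at 119 and 57.6 CPM. *Mgl2*, a C-type lectin, was at 22.8 and 9.57 CPM, *Chdh*, choline dehydrogenase, at 18.5 and 7.39 CPM, and *1700048O20Rik* at 12.9 and 4.45 CPM. *Mcpt8* and *Prss34*, proteases of basophils, were at 80.2 and 22.2 CPM and at 21.4 and 1.93 CPM.

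Few cells carried the basophil genes. At least 3 UMIs of *Mcpt8* were found in 10 control and 12 *Tet2* KO cells, and 3 cells held 68.5% of its control UMIs and 78.0% of those of *Prss34*. The rest of the GMP libraries held more of both, with *Mcpt8* at 502 and 296 CPM and *Prss34* at 393 and 154 CPM. Cells with 3 or more UMIs over 11 defining genes of dendritic cells, basophils, mast cells, lymphocytes, red cells and platelets were then left out, a list chosen after seeing the data, which left 402 control and 658 *Tet2* KO cells. The 11 genes included *Mcpt8*, *Prss34* and *Cpa3*, so the exclusion itself changed their ratios and does not test what those cells contributed. On the scale with 1 CPM added, the log2 ratio of *Mcpt8* was -1.80 in all selected cells and -0.60 after the exclusion. That of *Prss34* was -2.93 and -0.95. The basophil and mast cell list as a whole had 4 genes with at least 20 UMIs, all past 1.5-fold lower, and its median of -1.69 became -0.60.

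**Figure D4:**
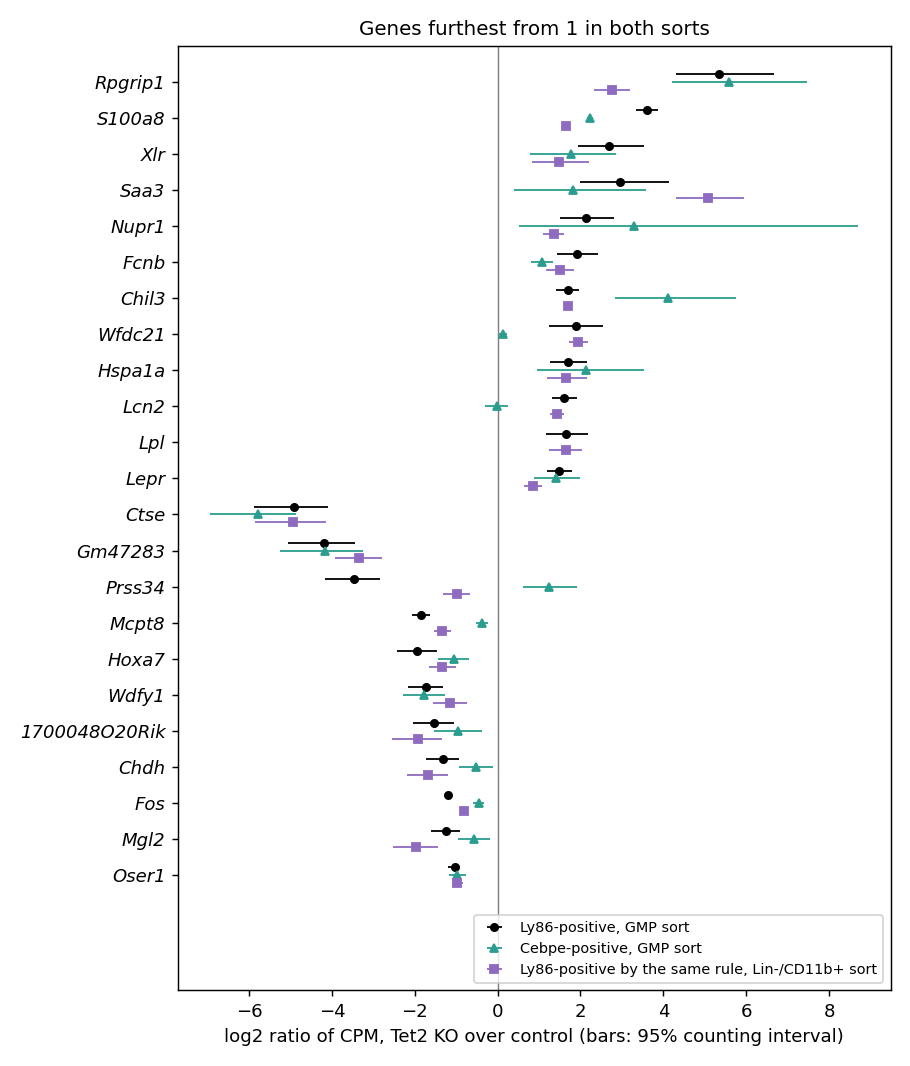
Log2 ratio of CPM, *Tet2* KO over control (x axis), of the 12 highest and 11 of the 12 lowest genes (y axis) in *Ly86*-positive cells of the GMP sort (black circles), *Cebpe*-positive cells of the same sort (green triangles) and *Ly86*-positive cells of the Lin-/CD11b+ sort (purple squares), bars showing 95% counting intervals. *Rpgrip1* (5.35), *Ctse* (-4.92) and *Gm47283* (-4.20) lie on the same side in all 3 groups of cells, *Prss34* does not, and *Lpl* has no triangle because it had no UMI in control *Cebpe*-positive cells.

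Gene lists were described by how many of their members with at least 20 UMIs were past 1.5-fold in each direction, beside 2.04% higher and 3.43% lower over all 10373 genes. Immediate early genes, which cells transcribe within minutes of a stimulus, were lower in *Tet2* KO. Of 14, 9 were past 1.5-fold lower and none higher, all 14 had a ratio below 1, and the median log2 ratio was -0.78. *Fos*, a subunit of the AP-1 factor and the most abundant of them, was at 593 (577 to 610) CPM in control and 258 (249 to 268) CPM in *Tet2* KO, with a median of 10 and 3 UMIs per cell. *Jun* was at 395 and 276 CPM, *Zfp36*, which destabilises cytokine transcripts, at 86.5 and 51.4 CPM, and *Dusp1*, a phosphatase that ends MAP kinase signals, at 53.2 and 28.6 CPM. *Nr4a1*, a nuclear receptor, was at 5.44 and 1.51 CPM and *Atf3* at 3.38 and 0.924 CPM. The summed list was lower by 0.79 (0.75 to 0.82) on the log2 scale in selected cells, by 0.36 in *Cebpe*-positive cells and by 0.44 in the Lin-/CD11b+ sort.

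The monocytic transcription factors leaned the same way, with 3 of 13 past 1.5-fold lower, none higher and a median of -0.23, and those 3, *Fos*, *Egr1* and *Nr4a1*, were also on the immediate early list. Away from that list *Irf8* was lower by 0.36 (0.30 to 0.42) on the log2 scale, *Zeb2* was at 147 and 125 CPM, *Klf2* at 40.0 and 27.2 CPM, and *Irf5* at 25.4 and 30.0 CPM. In the Lin-/CD11b+ sort *Irf8* was at 870 and 645 CPM. Chemokines and cytokines had 5 of 11 genes past 1.5-fold lower and none higher, with a median of -0.47. *Ccl9*, the most abundant chemokine, was at 278 and 168 CPM, *Ccl3* at 20.2 and 11.5 CPM and *Ccl4* at 11 and 4.45 CPM. *Mif*, macrophage migration inhibitory factor, was higher at 1189.5 and 1408.9 CPM, so the log2 ratio of the summed list was 0.048 while its median was negative.

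Early progenitor genes had 3 of 13 past 1.5-fold lower and 1 higher, with 12 below a ratio of 1 and a median of -0.47. *Cd34* was at 83.8 and 56.3 CPM, *Cd27* at 26.2 and 15.6 CPM, and *Hoxa9*, a homeobox gene like *Hoxa7*, at 8.34 and 2.52 CPM. The exception was *Ifitm1*, an interferon-inducible membrane protein that blocks virus entry, at 133 (125 to 141) and 301 (291 to 311) CPM. Because of it the sum of the early progenitor list was higher by 0.17 in *Tet2* KO against its median.

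Of the 4 *Ifitm* genes, 2 were past 1.5-fold higher and none lower, with a median of 0.50. *Ifitm3*, the most abundant after *Ifitm2*, was at 456 (442 to 471) and 803 (787 to 820) CPM. In *Cebpe*-positive cells *Ifitm1* was at 206 and 157 CPM and *Ifitm3* at 212 and 238 CPM, so neither pair differed there as it did in the selected cells, and the difference between the groups of cells was not tested. Other interferon-stimulated genes had 5 of 22 past 1.5-fold higher and none lower, with a median of 0.26. *Ifi27l2a* was at 22.1 and 38.8 CPM, *Isg15* at 2.54 and 5.21 CPM and *Bst2*, tetherin, at 165 and 188 CPM. *H2-Q7*, a class I gene with close paralogs, was at 28.9 and 65.2 CPM, and was the 1 of 15 class I and peptide loading genes past 1.5-fold.

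Of 9 S100 and annexin genes, 4 were past 1.5-fold higher, none lower, and the median was 0.57. *S100a4* was at 70.3 and 146 CPM and *S100a6*, a calcium-binding partner of annexins, at 154 and 252 CPM, both low in *Cebpe*-positive cells of either genotype. Secondary granule genes had 5 of 9 past 1.5-fold higher and 1 lower, with a median of 0.74. *Lyz2*, their most abundant member, was at 711 and 999 CPM. The defining transcripts of those granules stayed near 0: *Ltf* had no UMI in either library, and *Camp* was at 0.362 and 0.168 CPM. The 1 past 1.5-fold lower was *Cd177*, a surface protein of neutrophils, at 2.66 and 0.336 CPM. The primary granule list stayed level, with 1 of 11 past 1.5-fold and a median of 0.060.

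Families of surface proteins were mixed. Of 7 *Ms4a* genes, 3 were past 1.5-fold higher and 1 lower: *Ms4a3* was at 601 and 907 CPM, *Ms4a4c* at 26.7 and 44.7 CPM and *Ms4a6d* at 8.94 and 19.3 CPM, and the one below was the basophil and mast cell gene *Ms4a2*, at 1.81 and 0.672 CPM. Without the cells that carried other-type markers *Ms4a2* had 1 UMI in control and 8 in *Tet2* KO. Its log2 ratio was then 2.44 (-0.46 to 7.91), an interval that includes 0. Other basophil and mast cell genes were among those that chose the cells left out, so the change is partly built in. Of 6 *Ly6* genes, a family of close paralogs, *Ly6i* was at 5.20 and 15.1 CPM and *Ly6a* at 2.66 and 5.63 CPM, and *Ly6k* stood the other way at 10.0 and 1.93 CPM. *Clec4a2*, an inhibitory C-type lectin, was at 37.2 and 81.3 CPM, and in all 3 of 8 C-type lectins were past 1.5-fold higher. Among growth factor and chemokine receptors 1 of 15 was past 1.5-fold, *Flt3*, at 10.4 and 5.88 CPM.

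**Figure D5:**
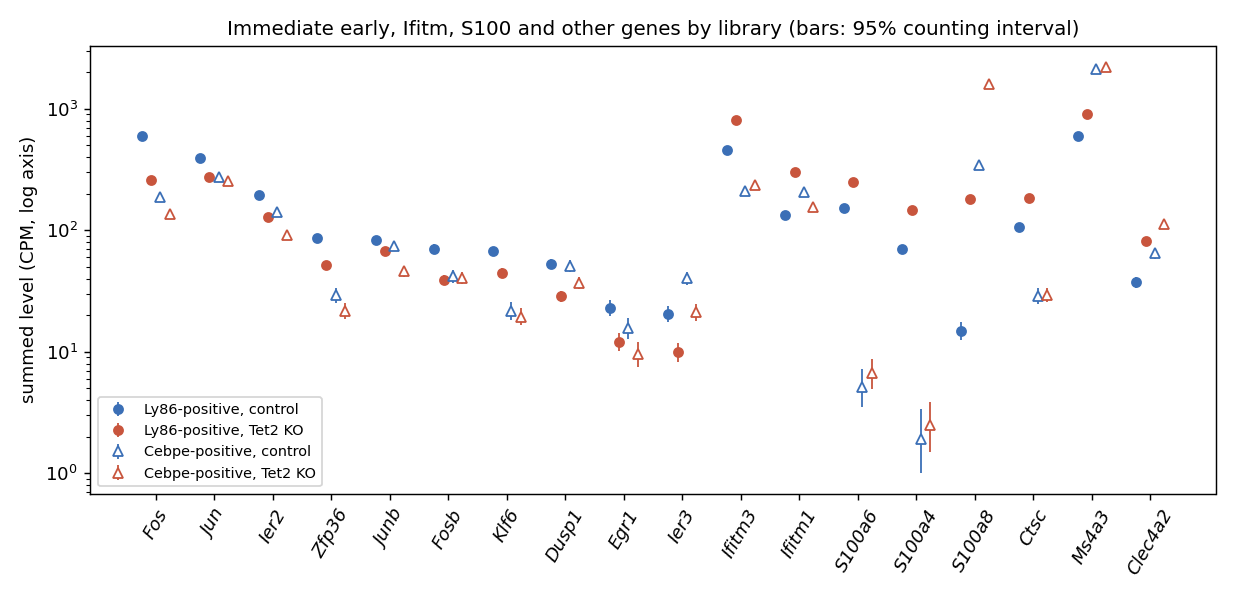
Summed level in CPM (log axis) of 10 immediate early genes and 8 others in the *Ly86*-positive (filled) and *Cebpe*-positive (open) cells of control (blue) and *Tet2* KO (red) GMP libraries, bars showing 95% counting intervals. *Fos* goes from 593 to 258 CPM in *Ly86*-positive cells, and *Ifitm3*, *S100a4* and *S100a8* are higher in *Tet2* KO.

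Several lists had no gene past 1.5-fold in either direction. Among them was the list of MD-1, MD-2 and the Toll-like receptors, with 11 genes counted and the MD-1 gene *Ly86* left out (median 0.036). Others were 10 genes of DNA methylation and its removal (-0.036), 6 genes of the NADPH oxidase (-0.056), 30 S phase genes (-0.052) and 35 G2/M genes (0.085). Oxidative phosphorylation genes, which encode the respiratory chain, were mostly a little higher in *Tet2* KO: 65 of 70 had a ratio above 1, with a median log2 ratio of 0.19. The mitochondrial ribosome had 71 of 78 above 1, with a median of 0.20 and 1 past 1.5-fold lower. Cytosolic ribosomal proteins had 69 of 79 below 1, with a median of -0.085, and took 381044.8 and 360115.4 CPM. In *Cebpe*-positive cells the same medians were 0.086, 0.050 and -0.023. MHC class II genes had 3 of 9 past 1.5-fold lower and a median of -0.38. That median became -0.14 when cells with markers of other types were left out. *H2-Aa* and *H2-Eb1* were among the genes that chose those cells, so the change is partly built in.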

How the data were processed

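Single-cell RNA was counted in 4 libraries of sorted bone marrow cells, and the 2 GMP libraries are described here. The authors mapped reads and counted UMIs with Cell Ranger 3.1.0, filtered cells in Seurat (at least 200 genes and 5000 UMIs, under 5% mitochondrial) and deposited raw UMI counts per gene and cell with a table giving each cell's library. Per the labels the build was mm10, and the labels name the v2 kit while the design text names a later version. Deposited cells at 5% or more mitochondrial counts (16 control and 17 *Tet2* KO selected cells) and possible doublets were kept, and no doublet caller was run.

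The cell rule and the 42 gene lists were chosen with earlier results of these data known. UMIs were summed per library over the selected cells and scaled to CPM, with exact Poisson intervals. Shares have Clopper-Pearson and ratios exact conditional binomial intervals. List medians use log2 of CPM + 1 over genes with at least 20 UMIs. Named genes were the label markers, list members, the 12 highest and 12 lowest genotype ratios (at least 100 UMIs in 1 library and 1.5-fold the same way in the Lin-/CD11b+ sort), the 12 highest and 12 lowest ratios to *Cebpe*-positive cells, and the 10 most variable. A few list members beyond those were named after their values were seen, and some genes that the rule names are not reported here. Detection was repeated at 5000 UMIs per cell with random seed 1. Ratios and their intervals were run on simulated Poisson counts with known folds, a check of the calculation alone. Those counts held no variation between cells, mice or libraries. Promoters came from RefSeq for GRCm38.p6, the assembly that mm10 names. Alternatives included other cell rules, TMM factors (edgeR 4.0.16 in R 4.3.3), means over cells and other filters. Python 3.11.15, numpy 2.4.6, scipy 1.17.1, pandas 2.3.3 and matplotlib 3.10.9 were used.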

Additional observations from a re-analysis of the deposited data

Results flagged for a closer look

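Only members of the gene lists and the named genes were scanned, against *Cebpe*-positive cells and against the Lin-/CD11b+ sort. For 7 of these genes the *Tet2* KO over control ratio went one way in the selected cells and the other way in a second group of cells. Each ratio was at least 1.5-fold, with 95% counting intervals on either side of 0. The difference was not tested, since each group is 1 library per genotype. No share over all genes was taken, so nothing is read from the count of 7. Against *Cebpe*-positive cells of the same libraries, the mast cell protease gene *Cpa3* had a log2 ratio of -2.35 in selected cells and 0.68 there. *Prss34*, the basophil protease, had -3.47 and 1.24. *Wfdc17*, a secreted protein of activated macrophages, had 1.28 and -1.36. Against the cells selected by the same rule in the Lin-/CD11b+ sort, the chemokine gene *Ccl5* had a log2 ratio of -0.86 in the GMP sort and 0.93 in the other sort. The MHC class II genes *H2-Aa* and *H2-Eb1* had -0.75 and -0.63 in the GMP sort and 1.71 and 1.88 in the other. The cells selected in the 2 sorts differed in their markers. Summed conventional dendritic markers were at 899 CPM in control and 2775.3 in *Tet2* KO in the Lin-/CD11b+ sort, against 275 and 190 in the GMP sort. The primary granule list was at 8142.4 and 5708.0 CPM, against 18789.9 and 19327.1. The part of cell content in these ratios was not tested. *Oasl2*, an interferon-stimulated gene with 1.33 and 0.252 CPM in the GMP sort, had -2.40 and 1.65. The genes used to leave out cells with other-type markers included *H2-Aa*, *H2-Eb1*, *Cpa3* and *Prss34*. Their ratios without those cells were thus changed by the exclusion itself, and the other sort was not filtered this way. Without those cells the log2 ratio in the selected cells was 1.44 (-0.45 to 3.90) for *H2-Aa* and 0.76 (-1.85 to 4.15) for *H2-Eb1*, intervals that include 0. That of *Cpa3* was -0.43 (-1.80 to 0.97), an interval that includes 0. Those of *Ccl5*, at -0.85, and *Oasl2*, at -1.98, kept their direction with intervals that reach 0, and those of *Prss34*, at -1.27, and *Wfdc17*, at 1.35, had intervals that do not. Few of the selected cells had a UMI of these genes: 3.09% of control and 1.63% of *Tet2* KO for *Cpa3*, 9.26% and 3.25% for *Prss34*, 2.14% and 2.37% for *H2-Aa*, and 1.66% and 0.888% for *Ccl5*, while *Wfdc17* had one in 15.7% and 29.4%.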

How the results depend on the processing

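No paired analysis was possible because the genotypes share 1 replicate number, with 1 library each per sort. No replicate could be left out. The share of *Ly86*-positive cells moved with the threshold, to 18.6% of control and 10.3% of *Tet2* KO with *Ly86* at 5 or more and *Cebpe* at 0, to 39.7% and 33.2% with *Ly86* at 2 or more, and to 27.8% of *Tet2* KO after thinning. The 86 genes past 1.5-fold higher became 354 in the Lin-/CD11b+ sort and 193 with a minimum of 20 UMIs, and the 83 lower became 54 at the stricter rule and 309 with that minimum. Lists with a median of 0.25 or more numbered 8, then 17 in the Lin-/CD11b+ sort and 4 with an offset of 10 CPM, and lists at -0.25 or less numbered 7, then 4 in each of those settings and 4 at the stricter rule. Selected minus *Cebpe*-positive log2 sums, chosen on thinned cells, were 1.86 and 1.09 for the label markers and -0.92 and -0.80 for the primary granule list. That list was at -1.0 in *Tet2* KO without the 5% of cells with most UMIs and at -1.01 in control without cells carrying markers of other types (chosen after seeing the data). At least 3 of 5 markers were found in 95% and 93.3% of thinned cells. The erythroid list's median changed sign, from 0.75 to -0.11, with no low-count filter, which adds genes of few UMIs to the 1 gene it rests on. The 24 genes named for genotype kept their direction and stayed past 1.5-fold under every alternative run, the Lin-/CD11b+ sort included, which the rule that named them used. The planned exclusion of cells by the full lists of other types was not run, since it would leave 3 control and 8 *Tet2* KO cells. No causes were tested.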

Other observations

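Further lists give a picture of the same cells. Among lysosomal genes, 2 of 21 were past 1.5-fold higher in *Tet2* KO and 1 lower, with a median log2 ratio of -0.11. *Ctsc*, the dipeptidase that activates granule serine proteases, was at 107 and 184 CPM, against 29.0 and 29.3 CPM in *Cebpe*-positive cells. Inflammatory regulators split evenly, with 3 of 10 past 1.5-fold in each direction and a median of -0.20. *Apoe*, apolipoprotein E, was at 11.1 and 26.4 CPM and *Wfdc17* at 10.8 and 26.1 CPM, while *Nfkbia*, the inhibitor of NF-kappaB, was at 54.6 and 52.7 CPM. Interferon-induced GTPases had 1 of 8 past 1.5-fold higher and none lower, with a median of 0.39, and the *Ifi200* family had none of 8, with a median of 0.17.

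Neutrophil markers had 4 of 6 past 1.5-fold higher, with a median of 1.54, while the summed list, which *Elane* leads, was higher by 0.12 (0.11 to 0.14) on the log2 scale, and *Gfi1*, a transcription factor of that fate, was at 1.69 and 2.77 CPM. Mature monocyte markers had 1 of 7 past 1.5-fold in each direction. *C3*, a complement component, was at 22.8 and 38.0 CPM, the 1 of 6 coagulation and complement genes past 1.5-fold. Glycolysis had 1 of 17 past 1.5-fold and a median of -0.030, and the mitochondrially encoded genes none of 13 and a median of -0.13. In the sort itself, *Fcgr3*, which encodes CD16, was at 138 and 114 CPM and *Kit* at 18.6 and 13.4 CPM. *Ighm*, the immunoglobulin heavy chain gene, was at 197 and 183 CPM in the selected cells, which held no UMI of *Ly6d* and 1 UMI of *Jchain* in each library. The whole GMP libraries held 26 UMIs of *Jchain* in control and 3 in *Tet2* KO.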
